A study of Mus musculus with 4 samples.

Results

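The immunoglobulin gene segments are the variable (V), diversity (D), joining (J) and constant (C) pieces from which antibody genes are assembled. They were taken as every row of the 2 deposited expression tables whose gene type starts with IG_, whatever its level. This gave 143 genes of 15396 in the AAV table and 7 genes of 12318 in the stress table, out of 19175 genes listed in either. All 7 of the stress table were also among the 143. GENCODE M21, the annotation of the same mouse build (mm10), holds 432 such genes. The 143 were 131 of 218 V genes, 11 of 13 C genes and 1 of 158 V pseudogenes, Ighv4-2. None of the 19 D genes or 14 J genes, which are 10 to 54 bases long, was listed, nor were the constant genes Ighe and Iglc4. Genes that were not listed carry no value here.

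An antibody consists of paired heavy and light chains. In a developing B cell, recombination joins V, D and J segments of the heavy-chain locus (Igh) and V and J segments of a kappa (Igk) or lambda (Igl) light-chain locus, and the assembled V exon is spliced to a constant region. Naive B cells make IgM and IgD, class switching replaces the heavy constant region by that of IgG, IgA or IgE, and plasma cells secrete the product in large amounts. Normal brain tissue holds few B-lineage cells, mainly in the meninges.

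RNA was sequenced from the prelimbic cortex, an area of the medial prefrontal cortex, of C57BL/6 mice aged 8 weeks, with 1 library in each of 4 groups. The stress pair consisted of a control library and a library of susceptible mice from a chronic social defeat experiment; the labels give the stress tag to both, and how the control mice were handled cannot be told from them. The AAV pair received adeno-associated virus expressing green fluorescent protein (AAV-GFP) or the chromatin corepressor CDYL (AAV-CDYL). The promoter and serotype of the virus, and whether a library came from 1 animal or a pool, are not stated in the labels. The label of each AAV library thus names a virus, and those of the stress pair name none.

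Cdyl, the overexpressed gene, stood at 1052 FPKM in AAV-CDYL against 2.68 in AAV-GFP, in the direction of the label. FPKM counts sequenced fragments relative to transcript length and to library size. Judged by the spacing of low values, the control library held about 15500000 effective fragments, and the susceptible, AAV-GFP and AAV-CDYL libraries about 24900000, 24300000 and 25700000. On Igkc, 1 fragment was then worth 0.250, 0.151, 0.158 and 0.145 FPKM in these 4 libraries. All 8 neuronal markers checked were listed in the AAV pair, with Snap25 at 1492 FPKM in AAV-GFP and 988 in AAV-CDYL. The tables were normalized separately, and no difference could be checked against replicates, so none is given a p-value of its own. In bulk tissue, fewer cells of a type and less RNA per cell cannot be told apart.

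The V segments with the highest levels are shown by the end of their coding sequence, since that stretch meets the D or J segment and makes the antigen-contacting loop. Each line gives the last 75 bases of the longest GENCODE M21 transcript, 5′ to 3′ on the coding strand. The capitals mark the codon of the conserved second cysteine, where that loop begins.
Ighv2-9, chr12:113879096-113879541, minus strand: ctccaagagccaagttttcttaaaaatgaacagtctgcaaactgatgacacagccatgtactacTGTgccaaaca
Ighv3-6, chr12:114288152-114288582, minus strand: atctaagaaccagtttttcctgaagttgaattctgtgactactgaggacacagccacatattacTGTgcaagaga
Ighv1-50, chr12:115119748-115120219, minus strand: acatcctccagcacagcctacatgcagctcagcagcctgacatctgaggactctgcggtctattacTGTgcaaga
Ighv1-61, chr12:115359140-115359572, minus strand: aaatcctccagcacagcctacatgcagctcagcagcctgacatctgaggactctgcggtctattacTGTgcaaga
Igkv6-25, chr6:70215400-70215957, plus strand: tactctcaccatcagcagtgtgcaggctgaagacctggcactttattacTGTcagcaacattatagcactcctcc
Igkv17 family member ENSMUSG00000076508, chr6:67861153-67861659, plus strand: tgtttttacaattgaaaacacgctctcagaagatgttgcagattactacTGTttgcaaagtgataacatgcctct
Igkv3-2, chr6:70698449-70699067, plus strand: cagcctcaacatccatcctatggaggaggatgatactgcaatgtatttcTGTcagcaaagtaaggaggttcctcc
Igkv4-53, chr6:69648824-69649363, minus strand: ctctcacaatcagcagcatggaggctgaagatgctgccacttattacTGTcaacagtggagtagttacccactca
Iglv1, chr16:19085017-19085500, minus strand: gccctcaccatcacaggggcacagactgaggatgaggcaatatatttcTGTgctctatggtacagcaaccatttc
Iglv3, chr16:19241207-19241690, minus strand: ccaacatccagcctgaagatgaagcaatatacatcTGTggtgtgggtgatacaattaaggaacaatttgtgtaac
Iglv2, chr16:19260401-19260859, minus strand: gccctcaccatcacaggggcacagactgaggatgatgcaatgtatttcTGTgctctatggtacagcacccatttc
The codon was TGT in all 11. In the heavy-chain segments 6 or 8 bases follow it, because the rest of the loop comes from D and J segments, whereas 23 to 37 bases follow it in the light-chain segments. The ends of Ighv1-50 and Ighv1-61, and those of Iglv1 and Iglv2, are nearly alike, so fragments from such stretches cannot be assigned to a single segment with certainty. Of the 63 listed Igh V segments 60 shared at least 1 window of 50 bases with another annotated immunoglobulin gene, as did 53 of 66 Igk and 2 of 3 Igl V segments. Levels of single V segments are therefore uncertain.

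In the AAV-CDYL library antibody transcripts of heavy, kappa and lambda chains were present throughout the loci. In AAV-GFP, Ighm was present at about 281 fragments and Ighg2c at about 38, on the shorter transcript of each. The other segments were at 0 or close to it there. All 143 segments were above their AAV-GFP value, and 137 of them were listed at 0 in AAV-GFP. Their summed level was 12.4 FPKM in AAV-GFP and 5773 FPKM in AAV-CDYL, or 0.0037% and 1.75% of the FPKM of all listed genes. Of the 5773 FPKM, 3465 belong to V segments, whose short length raises their FPKM about 3.67-fold at the median V length. A transcript that joins a V and a constant segment adds to the sum at both. The 1.75% is therefore not the share of antibody transcripts in the library. The size rule called a gene higher or lower if its log2(FPKM + 1) values were 1.5-fold or more apart, and it was applied to genes that reached 1 FPKM in at least 1 library of the pair (the floor). By this rule 121 of 121 segments were higher and 0 lower, beside 31.3% higher and 14.4% lower among all 8047 listed genes at the floor. Genes above 0 in both libraries are listed only where their log2 ratio is at least 0.322 in size, so these shares are over genes already selected for a difference. The median difference over the 143 was 2.83 on that scale, and 0.07 over all listed genes.

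That count is largely set by the low AAV-GFP values, since a segment near 0 there can reach the floor only by being higher. Only Ighm and Ighg2c reached 1 FPKM in AAV-GFP, and both were higher in AAV-CDYL. In AAV-CDYL, 15 segments stood at 100 FPKM or more, 43 between 10 and 100, 63 between 1 and 10, and 22 below 1. These numbers take V and constant segments together. Of the 143 segments, 45 have q under 0.05 in the authors' deposited table, beside 0.955% of all listed genes that are higher with q under 0.05. Those 45 are 40 V segments and 5 constant genes.

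Among heavy constant regions, 4 stood between 166 and 250 FPKM in AAV-CDYL: those of IgG2c, IgA, IgM and IgG2b. Ighg2c, the IgG2 gene that C57BL/6 mice carry in place of Ighg2a (chromosome 12, 113285325 to 113288932), stood at 1.87 FPKM in AAV-GFP and 250 in AAV-CDYL, a 134-fold ratio. Igha, the constant region of the mucosal and secreted class IgA (chromosome 12, 113254830 to 113260236), stood at 0.0495 and 234 FPKM. The AAV-GFP value of Igha is worth about 1 fragment, so its ratio is not well determined. Ighm, the constant region of IgM and the first class that a B cell makes (chromosome 12, 113418558 to 113422730), stood at 9.49 and 201 FPKM, a 21.2-fold ratio. Ighg2b (chromosome 12, 113302965 to 113307933) was listed at 0 and at 166 FPKM.

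The other heavy classes were much lower. Ighg3, the IgG class known for responses to polysaccharides, stood at 0.0506 FPKM in AAV-GFP, again about 1 fragment, and at 10.9 in AAV-CDYL. Ighg1, the class linked in mice to type 2 help, was listed at 0 and at 2.79 FPKM. Ighd, coexpressed with Ighm in naive B cells, stood at 0.107 and 0.501 FPKM, and did not reach the floor. Ighg2b and Ighg2c are 86.2% identical over 1114 aligned bases, against 73.6% to 75.6% for the other pairs of Ighg genes. The first 60 bases of the shorter transcript of each are shown to let this likeness be seen.
Ighg2b: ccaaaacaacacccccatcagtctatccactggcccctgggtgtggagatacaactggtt
Ighg2c: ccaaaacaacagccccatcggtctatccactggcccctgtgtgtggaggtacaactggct
As a share of the heavy constant FPKM in AAV-CDYL, Ighg2c made up 28.9%, Igha 27.0%, Ighm 23.2%, Ighg2b 19.2%, Ighg3 1.27%, Ighg1 0.323% and Ighd 0.0579%. The switched classes together held 76.7% and the 4 IgG classes 49.7%. In AAV-GFP the order was different, with Ighm at 82.0% and the switched classes at 17.03% of a sum of 11.6 FPKM.

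Light chains were nearly all kappa. There is a single kappa constant region, Igkc (mm10 chromosome 6, from 70726435 to 70726966). It had the highest level of any constant region in AAV-CDYL, 1407 FPKM or about 9689 fragments, and in AAV-GFP it was listed at 0. A lincRNA gene that overlaps it on the map, Gm30211, was at 0.0689 FPKM in the same library. The lambda constant genes Iglc2, Iglc1 and Iglc3 were all listed at 0 in AAV-GFP, and at 20.4, 11.8 and 3.91 FPKM in AAV-CDYL. Kappa thus made up 97.5% of light constant FPKM in AAV-CDYL, and light constant regions together stood at 1.67 times the heavy ones. That ratio is raised by length. Igkc has 532 bases, while the shortest transcripts of the annotated heavy constant genes have a median of 1105.5 bases. Igkc had about 9689 fragments. On the shorter transcript of each, Ighm had about 6340, Ighg2c 5448, Igha 5021 and Ighg2b 3633. The lambda constant genes are shown by their first 60 bases, because Iglc2 and Iglc3 are 94.9% identical over 454 aligned bases and their split of lambda fragments is uncertain.
Iglc1: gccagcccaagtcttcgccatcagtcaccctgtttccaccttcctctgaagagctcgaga
Iglc2: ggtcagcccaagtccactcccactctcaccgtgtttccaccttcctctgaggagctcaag
Iglc3: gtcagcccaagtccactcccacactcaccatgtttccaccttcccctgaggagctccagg

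**Figure D1:**
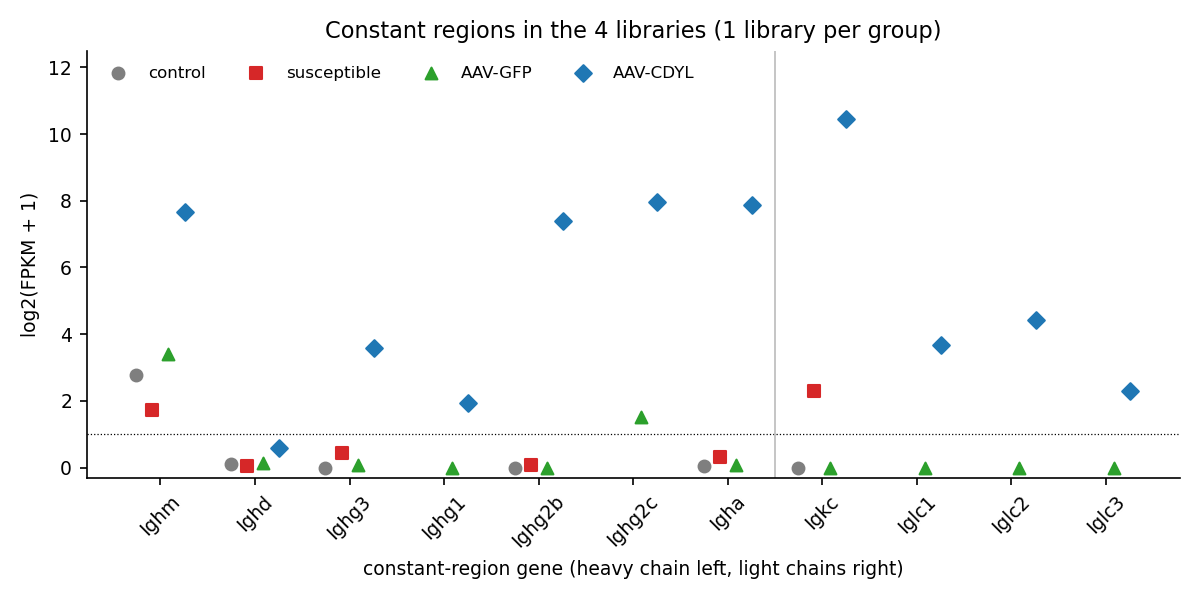
Level of each listed constant region as log2(FPKM + 1) in the 4 libraries, 1 point per library; a missing point means the gene is not listed in that table, and the dotted line is at 1 FPKM. AAV-CDYL is the highest point for every gene, with Igkc at 1407 FPKM, while Ighm is the only constant region above 1 FPKM in all 4 libraries.

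V segments of all 3 loci were detected in AAV-CDYL. Their FPKM values sum to 1173 for Igh, 2154 for Igk and 137 for Igl, against 0, 0.808 and 0 in AAV-GFP. The 0.808 FPKM belong to 1 segment, Igkv6-20, at about 2.02 fragments, and that segment stood at 10.4 FPKM in AAV-CDYL. V segments are only slightly longer than a sequenced fragment: with a median of 363 bases, 99 bases remain after subtracting the fitted fragment length of 264 bases in AAV-CDYL. Their FPKM is raised about 3.67-fold by this, so V levels are not compared here with those of constant regions.

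Reads were spread over many V segments, with a small number at high levels. Ighv2-9 was the highest, listed at 0 in AAV-GFP and at 311 FPKM in AAV-CDYL, or about 785 fragments. It held 26.5% of the Igh V level. The next 7 Igh segments were Ighv3-6 at 135 FPKM, Ighv1-50 at 96.8, Ighv1-61 at 70.4, Ighv1-26 at 68.2, Ighv5-9-1 at 64.8, Ighv1-9 at 60.2 and Ighv1-55 at 44.0, all listed at 0 in AAV-GFP. In Igh, 4 segments held 50% of the V level and 20 held 90%.

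Kappa V usage was more even. Igkv6-25 led with 258 FPKM, or about 771 fragments and 12% of the Igk V level. It was followed by the Igkv17 family member ENSMUSG00000076508 at 170 FPKM, Igkv3-2 at 157, Igkv4-53 at 154, Igkv10-96 at 151, Igkv8-24 at 147, Igkv16-104 at 133 and Igkv4-72 at 132, each listed at 0 in AAV-GFP. Here 7 segments held 50% and 22 held 90%. The inverse Simpson index, the number of equally used segments that would give the same concentration, was 17.7 for Igk and 9.27 for Igh. Of the 3 lambda segments, Iglv1 stood at 74.8 FPKM, Iglv3 at 56.1 and Iglv2 at 6.43. Over all loci the 10 highest V segments held 50.5% of the V level, and the lower 66 of 132 held 3.53%.

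**Figure D2:**
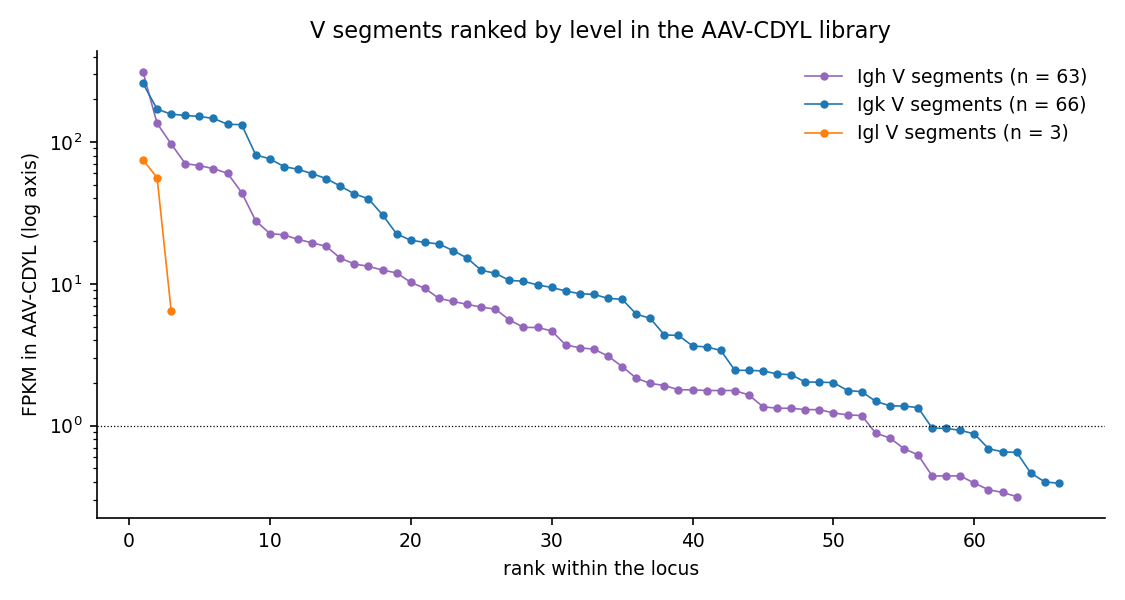
FPKM of each listed V segment in AAV-CDYL on a log axis, ranked within its locus; the dotted line marks 1 FPKM. The Igh curve starts at 311 FPKM and falls faster than the Igk curve, which holds 8 segments above 100 FPKM.

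The low end rests on very small numbers. For 89 V segments with a single annotated transcript the fragment number could be read from the FPKM. The median was 20.8 fragments and the highest 785, and 19 segments were at 3 fragments or fewer. All 43 segments under about 20 fragments lay within 0.15 of a whole number. The lowest of them were among the values used to fit depth and fragment length, so for those this was partly built in.

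The segments came from most V families. Ighv1, the largest heavy-chain family, had 33 of 53 annotated V genes listed and 40.3% of the Igh V level. Ighv2 had 8 of 9 and 32.4%, most of it Ighv2-9. Ighv3 had 3 of 6 and 11.8%, and Ighv5 had 8 of 10 and 9.98%. None of the 5 Ighv6 genes was listed. In Igk the Igkv6 family held 21.9% with 7 of 9 genes, Igkv4, the largest kappa family, 17.3% with 14 of 26, and Igkv12 10.7% with 5 of 6.

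Segments from the whole length of both large loci were listed. The annotated V genes were put in order from the constant region and cut into 4 parts of about equal gene number. In Igh the part nearest to Ighm had 19 of 28 genes listed and 44.9% of the V level, against 10 of 28 and 19.0%, 13 of 28 and 20.1%, and 20 of 29 and 15.97% in the parts farther away. Ighv2-9 lies in the nearest part and gave 311 of its 527 FPKM, while the parts farther away summed to 222, 236 and 187 FPKM. Without Ighv2-9 the nearest part held 25.02% of a total that also lacks it, so this share is not comparable with the 3 others above. In Igk the 4 parts held 37.1%, 19.0%, 19.2% and 24.7%, or 800, 410, 413 and 532 FPKM. Igkv6-25 gave 258 FPKM of the nearest part. Without Igkv6-25 that part held 28.6% of a total that also lacks it. Kappa V genes lie in both orientations and join by inversion or deletion accordingly. Listed were 26 of 38 on the plus strand, with 48.6% of the level, and 40 of 64 on the minus strand with 51.4%.

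**Figure D3:**
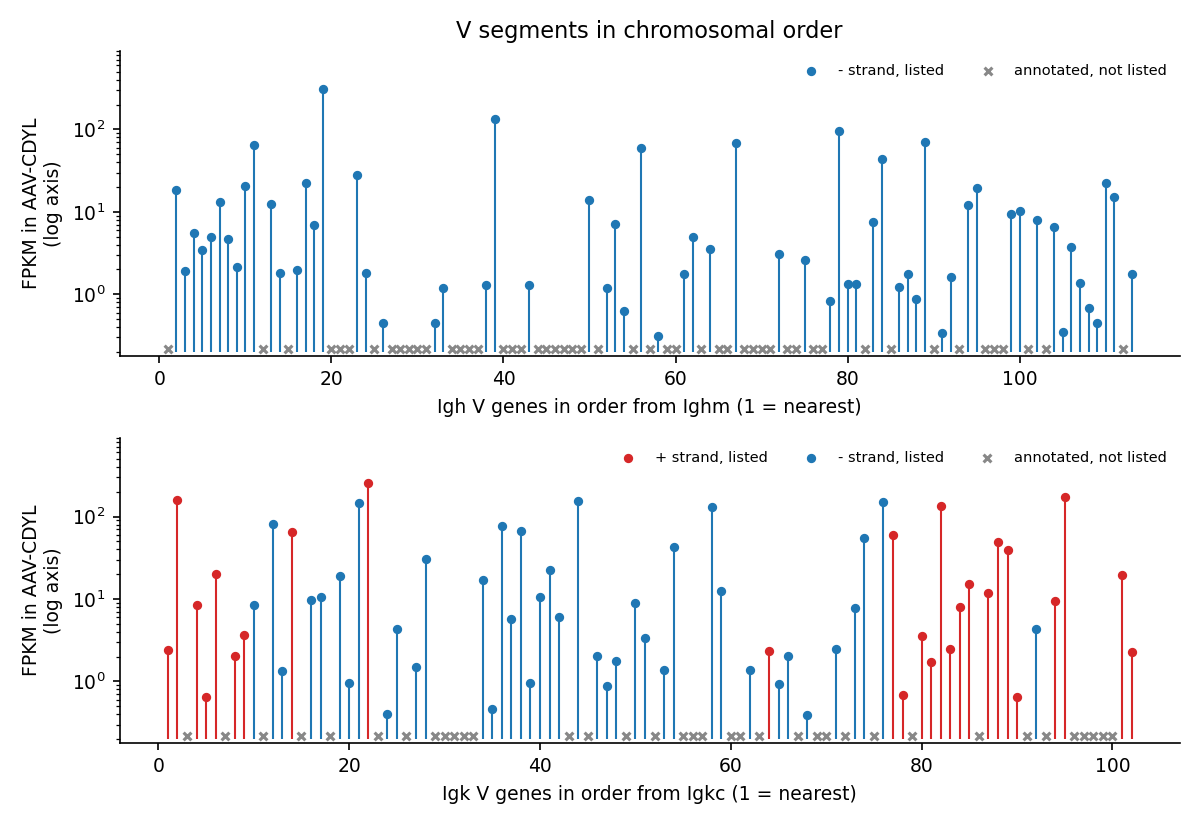
FPKM in AAV-CDYL (log axis) of Igh and Igk V genes in their order from Ighm or Igkc, coloured by strand; crosses mark annotated genes that are not listed. High segments such as Ighv2-9 at 311 FPKM and the Igkv17 family member at 170 FPKM lie in both near and far parts of the loci.

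The stress pair differed by far less. Of its 7 listed segments 5 were above and 2 below their control value, beside 58.6% of all listed genes above. Only 2 reached the floor, of which 1 was higher and 1 lower, beside 18.9% higher and 10.8% lower among all 5334 listed genes at the floor, which lack small differences in the same way. The summed level was 6.03 FPKM in control and 7.74 in susceptible, and the median difference was 0.27 on the log2(FPKM + 1) scale, against 0.06 over all listed genes.

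Igkc was the segment that was higher. Its susceptible value was 3.92 FPKM, about 26 fragments with a 95% Poisson interval of 16.98 to 38.1 for counting error only, and in control it was listed at 0. In the authors' deposited table Igkc has q = 0.0225, and 0.284% of all listed genes are higher with q under 0.05. Ighm was the segment that was lower: control held 5.92 FPKM and susceptible 2.29, a ratio of 2.58. On the shorter of its 2 annotated transcripts this is about 112 fragments (95% Poisson interval 92.2 to 135) and 70.0 fragments (54.6 to 88.4), in libraries of different depth. In the authors' deposited table Ighm has q = 0.999.

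The other 5 stayed below 1 FPKM. ENSMUSG00000076508, the Igkv17 segment at 170 FPKM in AAV-CDYL, had 0.864 FPKM in susceptible and was listed at 0 in control. Ighg3 was listed at 0 and at 0.344 FPKM, about 7 fragments. Igha stood at 0.0285 and 0.241 FPKM, Ighg2b was listed at 0 and at 0.0473, and Ighd stood at 0.0844 and 0.0261. Each of these values rests on 7 fragments or fewer on the shorter transcript, or was not converted because the segment has 2 transcripts.

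Ighm was the only segment at 1 FPKM or more in all 4 libraries: 5.92 in control, 2.29 in susceptible, 9.49 in AAV-GFP and 201 in AAV-CDYL. In control and AAV-GFP it was present at about 112 and 281 fragments while Igkc was listed at 0 and no heavy-chain V segment was listed above 0. Light constant regions stood at 1.33 times the heavy ones in susceptible and at 1.67 times in AAV-CDYL. The susceptible ratio is over the 5 heavy and 1 kappa constant genes listed there, with Igkc at about 26 fragments. The AAV-CDYL ratio is over 7 heavy, 1 kappa and 3 lambda constant genes, so the 2 ratios are not over the same genes. Both ratios are also raised by the short length of Igkc. The values from the 2 pairs come from separately normalized tables.

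Genes of the B lineage were low in AAV-GFP and had higher values in AAV-CDYL. Of 13 plasma-cell markers 12 were listed, all above their AAV-GFP value, beside 59.2% of all listed genes. The 9 at the floor were called higher, beside 31.3% of all listed genes at the floor. However, 0 of the 9 were at 1 FPKM in AAV-GFP, so none of them could have been called lower. Jchain, which links IgM and IgA into polymers, stood at 0.183 and 77.6 FPKM. Mzb1, a chaperone of antibody assembly, was listed at 0 and at 7.19, Slamf7 at 0 and at 2.76, and Derl3, of protein quality control in the endoplasmic reticulum, stood at 0.809 and 4.34. The summed level of the plasma-cell list was 3.23 and 103 FPKM. In the B-cell list 13 of 14 listed genes were above AAV-GFP, beside the same 59.2%, with a sum of 1.69 and 25.5 FPKM. The 5 at the floor were called higher, beside the same 31.3%, and again 0 of them were at 1 FPKM in AAV-GFP. Cd79a, the signalling chain of the B-cell receptor, was listed at 0 and at 2.37 FPKM, Cd22 stood at 0.0138 and 2.46, and Cd37 at 0.946 and 13.5. The B-cell marker Ms4a1 was low in both, at 0.0584 and 0.453 FPKM. The part that cell numbers have in the antibody transcripts was not tested.

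Of 18 listed genes that attract and sustain B cells, 9 were at the floor. Of these 8 were called higher, beside 31.3% of all listed genes at the floor. Only 2 of the 9 were at 1 FPKM in AAV-GFP, of which Il6ra was higher, at 1.08 and 2.28 FPKM, and Cxcl12 was not called, at 37.1 and 28.5. Cxcl13, the chemokine that recruits B cells, was listed at 0 and at 16.4 FPKM, Ccl19 at 0 and at 2.42, and Tnfsf13b, which encodes the survival factor BAFF, stood at 0.692 and 2.54. Tnfrsf13b, a receptor of BAFF, stood at 0.323 and 3.02, and Cd40 at 0.0619 and 2.48. In the stress pair 2 genes of this list were at the floor. Of these 1 was lower and 0 higher, beside 10.8% and 18.9% of all listed genes at the floor. The lower gene was Cxcl12, at 43.8 FPKM in control and 25.1 in susceptible.

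Receptors that bind antibody were higher in AAV-CDYL, with 7 of 7 at the floor, and 5 of these were already at 1 FPKM or more in AAV-GFP. The share over all listed genes at the floor was 31.3%. Fcer1g, the signalling chain shared by activating Fc receptors, stood at 7.38 and 76.98 FPKM, and Fcgr3, an activating IgG receptor, at 6.54 and 37.0. Fcgr2b, the inhibitory IgG receptor, stood at 1.75 and 19.8, Fcgr1, the high-affinity IgG receptor, at 2.10 and 14.5, and Fcgr4 at 0.167 and 8.09. Trim21, a cytosolic antibody receptor, stood at 0.719 and 9.26. In the stress pair 2 of 6 such genes at the floor were higher, beside 18.9% of all listed genes at the floor. These were Fcgr3, at 8.87 and 17.3, and Fcgr4, at 0.395 and 2.03. Of the 4 at 1 FPKM in control only Fcgr3 was higher.

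Of 17 secretory-pathway genes that plasma cells use, 7 were listed in the AAV pair and 4 were higher, beside 31.3% of all listed genes at the floor. Ppib stood at 60.2 and 107 FPKM, Sec61b at 35.1 and 56.5, Sdf2l1 at 16.1 and 25.5, and Ssr4 at 44.5 and 68.0. In the stress pair all 9 listed were below control, beside 5097 of all 12318 listed genes, and none passed the rule. Of the class-switching and mutation list only 4 of 13 were listed in the AAV pair. Of the 3 at the floor 1 was higher, beside 31.3% of all listed genes at the floor. This was Xrcc4, a DNA ligation factor, at 7.04 and 13.9 FPKM. The other 3 listed genes were below AAV-GFP and not called. Xrcc4 was also higher in the stress pair, at 6.18 and 12.47 FPKM, as was the mismatch repair gene Pms2, at 6.49 and 10.8. They were 2 of 4 genes of this list at the floor there, beside 18.9% of all listed genes at the floor. Of the pre-B-cell list, Vpreb1 was the only gene listed in the AAV pair, at 0.0897 and 0 FPKM.

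Markers of other cells differed as well. The 13 T-cell markers summed to 27.8 FPKM in AAV-GFP and 85.5 in AAV-CDYL, with Cd3g listed at 0 and at 7.30, and Trac at 0.352 and 11.5. Trbc2 alone made up 24.5 and 33.8 FPKM of these sums, and it was not called by the size rule. All 13 were at the floor and 12 were called higher, beside 31.3% of all listed genes at the floor. Only 3 of the 13 were at 1 FPKM in AAV-GFP, of which 2 were higher. Of 64 T-cell receptor segments 61 were above AAV-GFP, beside 59.2% of all listed genes, with a sum of 35.1 and 98.2 FPKM that includes Trbc2. Of 19 such segments at the floor 15 were higher and 3 lower, beside 31.3% and 14.4% of all listed genes at the floor. Of the 6 such segments that reached 1 FPKM in AAV-GFP, 2 were higher and 3 lower. Of the 8 neuronal markers all were below AAV-GFP, beside 6281 of all 15396 listed genes. By the size rule 4 of them were lower, beside 14.4% of all listed genes at the floor. Of the erythrocyte markers only Alas2 was listed in the AAV pair, at 1.501 and 0.569 FPKM. In the stress pair 2 of 5 erythrocyte markers at the floor were lower in susceptible, beside 10.8% of all listed genes at the floor. These were the haemoglobin genes Hba-a1, at 247 and 132 FPKM, and Hba-a2, at 362 and 180. In that pair 7 of 11 listed B-cell markers were above control and 4 below, beside 58.6% of all listed genes above. Of 8 listed plasma-cell markers 6 were above and 2 below. Each of these lists had 1 gene at the floor, and 0 were called higher or lower. Jchain, at 0 and 0.142 FPKM, was among the plasma-cell markers above control. Cd79b, at 0.211 and 0.0864 FPKM, was among the B-cell markers below it. Of 6 T-cell markers listed there, 2 reached the floor and were called higher, beside 18.9% of all listed genes at the floor. They were Cd4 at 0.137 and 1.25 and Cd247 at 0.00201 and 1.0002, and 0 of the 6 were at 1 FPKM in control. The part of these cells in the antibody results was not tested.

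**Figure D4:**
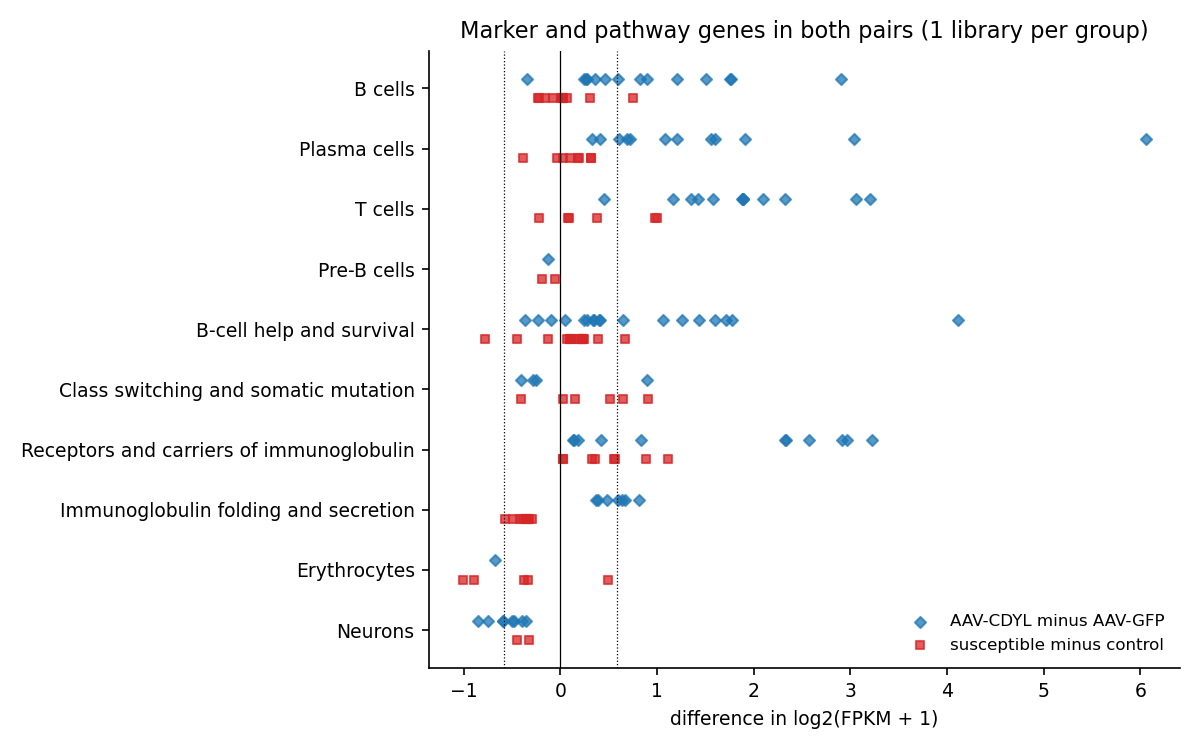
Difference in log2(FPKM + 1) for each listed gene of the marker and pathway lists, AAV-CDYL minus AAV-GFP (diamonds) and susceptible minus control (squares); dotted lines mark 1.5-fold. Plasma-cell, T-cell and antibody-receptor genes lie to the right in the AAV pair, led by Jchain at 6.05, and neuronal genes to the left.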

How the data were processed

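Each library is 1 sample of prelimbic cortex. Per the submitters' processing notes, FPKM values were made by the authors with Cuffdiff on build mm10; the aligner and the annotation used are not named there. Per the labels' protocols, the NEBNext Ultra kit was used; it keeps no strand information. The authors also deposited p-values and q-values, each from 1 library against 1, printed here as the authors' own. No gene above 0 in both libraries differs by less than 0.322 on the log2 scale in either table.

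Differences are in log2(FPKM + 1), a scale that understates differences of low genes; ratios are of FPKM, and none is given against 0. Depth and fragment length were fitted so that low values of genes with 1 annotated transcript became whole numbers of fragments; 94.5% to 95.04% of the low values in a library lay within 0.15 of a whole number. A multiple of the true depth was avoided by asking for odd numbers. Fitting and size rule were tested on simulated data. All 143 rows matched GENCODE M21 by gene ID, and a row named Gm43218 there keeps the file's symbol Igkv8-23-1. A repeated symbol (Cd37, Ccl21a) was taken once, by its first gene ID. There were 0 per-sample columns left unmapped. Members and lists were chosen with earlier results of these data known. Named were all constant genes, up to 8 V segments per locus, members listed in both tables, and in most lists up to 6 genes. The genes named from a list are not always those with the largest difference. Promoters and recombination signals of V segments were not analysed here. Alternatives were other floors, pseudocounts, fold, scaling and row sets. Python 3.11.15, numpy 2.4.6, pandas 2.3.3, scipy 1.17.1, Biopython 1.88 and matplotlib 3.10.9 were used.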

Additional observations from a re-analysis of the deposited data

How the results depend on the processing

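No paired analysis was possible because each group has 1 library, and no replicate could be left out. In the AAV pair the 121 higher segments became 75 with a floor of 5 FPKM and 2 where only segments at 1 FPKM or more in AAV-GFP count; without a floor there were 132, and no alternative gave a lower segment. The median difference was 5.86 with a pseudocount of 0.1, 3.73 with 0.5, 3.31 over segments at the floor, 2.76 centred on the median of all genes and 2.90 scaled to a common upper quartile. In the stress pair the 1 higher segment became 2 without a floor or scaled to the upper quartile, and 0 with a floor of 5 FPKM or where only segments at 1 FPKM in control count, since Igkc is at 0 there; Ighm stayed the 1 lower segment. The stress median was 1.41, 0.49, 0.61, 0.21 and 0.34 in the same order. The share of the 10 highest V segments was 51.7% over segments alone in their Cuffdiff locus. That setting gives no kappa share, because Igkc shares its locus with Gm30211. The kappa and switched shares moved by less than 1 percentage point when weighted by exonic length or, chosen after seeing the data, by effective length (97.8% and 76.5%). Depth limits the low V segments most: 1 fragment is worth 0.452 FPKM in AAV-GFP at the median V length.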

Other observations

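The authors' q-values did not follow the size of the difference. In the AAV pair, Igha has q = 0.999 in the authors' deposited table at 0.0495 and 234 FPKM, and so has Ighg3 at 0.0506 and 10.9. Ighg1, listed at 0 and at 2.79 FPKM, has q = 0.0317 in the authors' deposited table. Of the 116 segments listed at 0 in AAV-GFP and at 1 FPKM or more in AAV-CDYL, 44 have q under 0.05 in the authors' deposited table, and of the 5 above 0 in AAV-GFP with a ratio of 10 or more, 1 has, Ighm. Over all genes of the AAV table these are 98 of 275 and 21 of 376, or 35.6% and 5.59%. These counts include the segments themselves, which are 116 of the 275 genes and 44 of the 98.

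For some constant genes of the stress pair, the values came out as whole fragments on the shorter annotated transcript, and for others they did not. In susceptible, Ighm was at 70.0, Ighg3 at 7, Igha at 5 and Ighg2b at 1 fragments on it. In control, Igha came to 0.365 fragments on the shorter and 1 on the longer transcript.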
